A study of Rattus norvegicus with 18 samples.

Results

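Synovial CD11b/c+ cells of rats with knee osteoarthritis (OA) were compared with those of sham-operated rats 4 weeks after surgery. The 10 libraries of this time point, 5 OA and 5 sham, were taken from a series of 18, and the genes described are the 14861 of 30643 in the deposited table whose normalized reads averaged 10 or more over the 10 libraries. All rats were wild type male Sprague Dawley rats, 12 weeks old at surgery. In OA rats the anterior cruciate ligament and the medial meniscotibial ligament of the knee were cut, and in sham rats the joint was opened with no ligament cut, so both groups carried the incision. Each library was made from the synovium of 4 rats pooled before enzymatic digestion, and magnetic beads against CD11b/c collected the myeloid cells. The 5 libraries of a group are pools of different rats. The model is a surgical injury in male rats, and the beads keep any cell that carries CD11b/c, so neutrophils and eosinophils can be present, and markers of endothelial cells and fibroblasts were measured at high levels too.

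Synovial macrophages line the joint cavity and populate the connective tissue beneath it. The lining cells are held together by tight junctions and carry the fractalkine receptor CX3CR1, TREM2 and VSIG4, while cells of the sublining take up debris through scavenger receptors such as LYVE1 and MSR1. After joint injury both can be joined by monocytes from the blood, and all of these cells carry CD11b. Because the libraries are bulk RNA, a higher level of a gene in more cells cannot be told apart from more of its RNA per cell.

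Recovered reads ranged from 11046979 to 17235069 per library in OA (median 14063242) and from 4662344 to 12927114 in sham (median 11767006). Detection was set at 3 reads, which came to 2.06 to 6.96 normalized reads depending on the library and covers counting error only. The lowest depth belonged to sham replicate 3, which stood apart from the other 9 libraries in several measures. It put 1.02% of its reads in the 15782 genes under the mean of 10, against 0.142% to 0.294% in the others, and 3.04% in ribosomal protein genes, against 1.62% to 1.85%. Its mitochondrial share was 1.69%, against 0.882% to 1.30%. Its median correlation with the other libraries was 0.947, while theirs were 0.980 to 0.987. The part of these differences in any result was not tested. The 11 core macrophage markers were detected in all 10 libraries. Csf1r, the receptor for the macrophage growth factor CSF1, had 21724 to 28192 normalized reads in OA and 20785 to 24072 in sham. Itgam, which encodes CD11b itself, had a median of 4246 in OA and 4893 in sham, with overlapping ranges. RNA of other cells was also abundant. The endothelial markers summed to 78679 to 103144 in OA and 82439 to 101647 in sham, beside 91890 to 105364 and 91015 to 110917 for the core macrophage markers. Vwf, the von Willebrand factor of endothelial cells, had a median of 9677 in OA and 12043 in sham, and the fibrillin Fbn1, a fibroblast marker here, 8263 and 9048. These levels are not per length, so they do not rank the cells, and their part in the results was not tested.

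**Figure D1:**
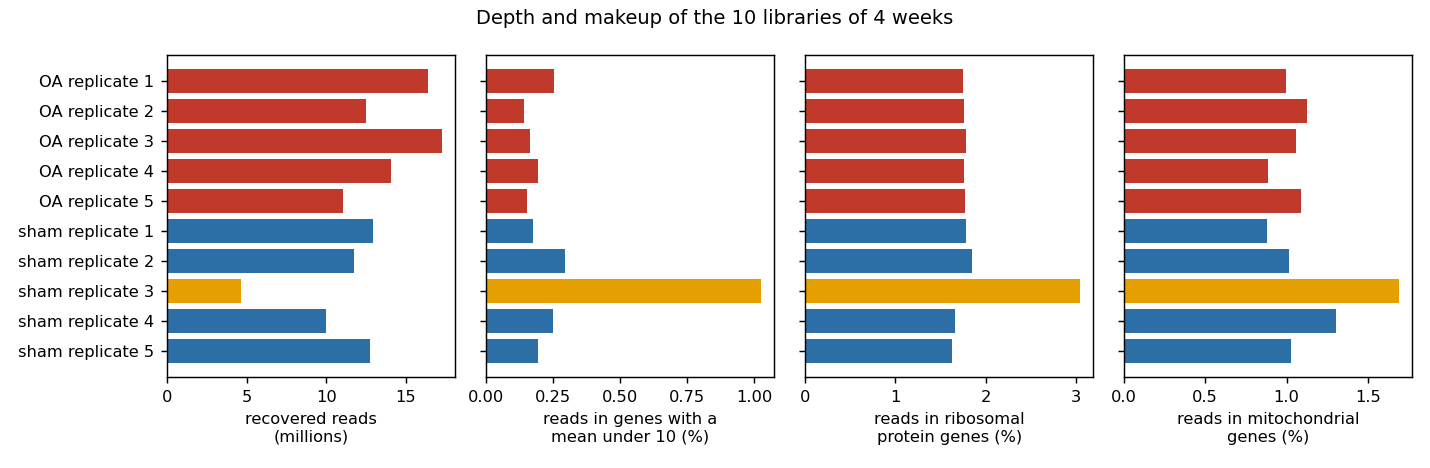
Recovered reads and the percent of reads in 3 classes of genes for each of the 10 libraries (OA red, sham blue, sham replicate 3 orange). Sham replicate 3 has the fewest reads, 4662344, and the highest share in each class, such as 3.04% in ribosomal protein genes against 1.62% to 1.85% in the other libraries.

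Promoter DNA is shown for the genes that open the ranking described further on, which left out the genes the study names at 4 weeks. These were Fap and Tnn among genes higher in OA and Hivep3 and Mybpc1 among genes lower in OA. The RefSeq promoter table of the GRCr8 assembly held 3 of these 4 genes, with 250 bases before and 50 bases after the start of the gene. They are printed 5′ to 3′ in the direction of the gene, with letters in capitals where a searched motif was found.
Fap (chr3:67616042-67616341, minus strand): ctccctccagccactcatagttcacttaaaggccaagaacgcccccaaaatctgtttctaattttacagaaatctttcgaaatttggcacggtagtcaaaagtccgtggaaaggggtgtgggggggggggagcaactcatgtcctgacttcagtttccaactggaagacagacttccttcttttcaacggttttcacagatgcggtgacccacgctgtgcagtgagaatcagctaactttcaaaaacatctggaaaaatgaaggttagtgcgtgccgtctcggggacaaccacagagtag
Tnn (chr13:74919740-74920039, minus strand): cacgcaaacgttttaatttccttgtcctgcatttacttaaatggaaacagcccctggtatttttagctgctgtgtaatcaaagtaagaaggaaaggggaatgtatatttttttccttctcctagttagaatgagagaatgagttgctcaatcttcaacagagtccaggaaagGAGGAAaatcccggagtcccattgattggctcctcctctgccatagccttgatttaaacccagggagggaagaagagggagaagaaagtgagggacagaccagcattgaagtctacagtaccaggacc
Mybpc1 (chr7:24903324-24903623, minus strand): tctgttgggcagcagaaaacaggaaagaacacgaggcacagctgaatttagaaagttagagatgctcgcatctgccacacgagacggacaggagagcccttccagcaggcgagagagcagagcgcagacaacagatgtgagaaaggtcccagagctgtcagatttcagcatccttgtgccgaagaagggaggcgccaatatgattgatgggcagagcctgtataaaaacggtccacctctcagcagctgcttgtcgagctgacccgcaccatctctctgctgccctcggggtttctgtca
On both strands, the letters TTCNNNGAA and the same ends around 4 free letters, both bound by STAT factors, TGANTCA, bound by AP-1, and GAGGAA, the core bound by the myeloid factor PU.1, were searched. The only match in these 3 promoters was GAGGAA in Tnn, 78 bases before the start. Of 33469 promoters of this length, 27.6% hold GAGGAA, 8.87% hold TTCNNNGAA, 7.28% hold its form with 4 free letters and 7.33% hold TGANTCA. The forms with 3 and 4 free letters can overlap each other, and these shares describe letters and not binding.

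Across all genes, OA differed little from sham in size, and in the limma fit no gene passed adjustment, while DESeq2 called a few. A gene was called where its adjusted p was under 0.05 and its log2 fold change, higher or lower, reached 0.5, and limma with Benjamini-Hochberg adjustment called 0 of 14861 genes (0%). Without adjustment, 609 genes were higher in OA with a p under 0.05 (4.1%) and 568 were lower (3.82%). The libraries of both groups did not overlap in 175 genes that were higher in OA (1.18%) and in 103 that were lower (0.693%). DESeq2 on the recovered reads called 18 of 16978 genes as higher (0.106%) and 9 as lower (0.053%), while edgeR called 0, with 1202 genes under an unadjusted p of 0.05. The split between higher and lower genes turned on the scaling. With TMM scaling over the tested genes it was 481 higher and 654 lower, and with TMM scaling over every gene with a read, an alternative chosen after the data were seen, it was 855 higher and 460 lower. The median log2 fold change over all genes was 0.03 as deposited, 0.0023 with the former and 0.08 with the latter scaling.

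Sham replicate 3 was the highest sham library in most genes with much lower values in OA. Of the 896 genes with a log2 fold change of -0.5 or below, sham replicate 3 was the highest sham library in 782 (87.3%), against 33.4% of all genes. These 896 genes were mostly low, with a median of 17.1 normalized reads and 88.4% under a mean of 50, against 21.8% of all genes. Without the library 524 genes were at -0.5 or below, and 217 reached 0.5 or above where 200 had with all libraries. With 9 libraries limma called 1 gene (0.00673%), Slc1a3. There were then 893 genes with an unadjusted p under 0.05 that were higher in OA (6.01%) and 651 that were lower (4.38%), and the groups did not overlap in 352 higher (2.37%) and 195 lower genes (1.31%). A p under 0.05 was kept by 854 genes in both fits, 506 higher and 348 lower. Another 323 had it with all libraries only, 220 of them lower, and in 268 of the 323 sham replicate 3 was the outermost sham library on the side of the difference. The 323 were selected by losing such a p without this library, so the selection itself favours that count. The remaining 690 had it without the library only. DESeq2 without the library called 27 genes as higher (0.211% of 12778) and 13 as lower (0.102%).

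**Figure D2:**
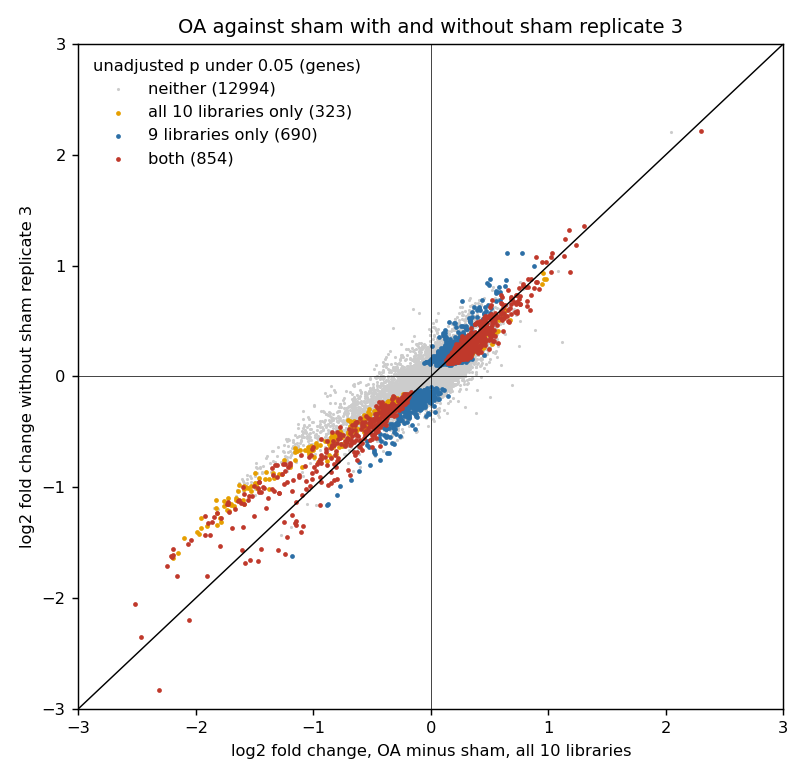
Log2 fold change of each of the 14861 genes with all 10 libraries (x axis) and without sham replicate 3 (y axis), coloured by which fit gives an unadjusted p under 0.05, with the line of equal values in black. Genes with a negative value on the x axis lie mostly above the line, closer to 0 once sham replicate 3 is left out, and 854 genes have a p under 0.05 in both fits.

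With the genes that the study names or labels at 4 weeks left out, the 14 highest ranked genes that were more abundant in OA included Fap, Tnn, Col4a3, Lst1, Adamts16, Egfl6, Nox4, Epdr1, Pex5, Cthrc1, Fabp3, Havcr2 and Cx3cr1. Fap encodes a protease of activated fibroblasts, Tnn tenascin W, Col4a3 a basement membrane collagen chain, Adamts16 a secreted metalloproteinase, Egfl6 a matrix protein with EGF repeats and Cthrc1 a collagen repeat protein. Lst1, Havcr2 (TIM-3) and Cx3cr1 are myeloid surface proteins. Their log2 fold changes ranged from 0.51 to 2.30 and their adjusted p-values in limma from 0.389 to 0.403. They were ranked by their difference in these libraries, so the values that follow are a description. All 14 kept their direction and a p under 0.05 without sham replicate 3.

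Fap had 1094, 1153, 1061, 1202 and 1221 normalized reads in the OA libraries and 545, 501, 448, 929 and 890.2 in sham. The OA libraries lay close together and above the whole sham range, while sham replicates 4 and 5 were well above the other 3 sham libraries. The log2 fold change was 0.85 (SE 0.19), and 0.73 (SE 0.17) without sham replicate 3. Tnn had 1207, 2837, 486, 1019 and 895 normalized reads in OA and 494, 87.2, 172, 472 and 146 in sham. OA replicate 3 fell just under the highest sham library, and the log2 fold change of 2.30 (SE 0.52) was the largest of the 14. Cx3cr1 had 1789, 1761, 1679.8, 1637 and 1568 in OA and 1327, 876, 655, 922 and 1525 in sham. Sham replicate 5 was nearly level with the lowest OA library, and sham replicate 3 was the lowest. The log2 fold change of Cx3cr1 came to 0.73 (SE 0.19) with all libraries and to 0.57 (SE 0.14) without sham replicate 3.

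Adamts16 had 66.6, 61.9, 77.6, 59.0 and 88.9 normalized reads in OA and 31.3, 36.8, 37.1, 50.4 and 53.4 in sham, with no overlap. Nox4, an oxidase that makes hydrogen peroxide, had 234, 200.1, 165, 258 and 181 in OA and 135, 118, 135, 162 and 149 in sham, where OA replicate 3 and sham replicate 4 nearly met. Pex5, the receptor that imports proteins into peroxisomes, had 55.7 to 69.6 in OA and 37.1 to 48.5 in sham. Fabp3, which binds fatty acids in the cell, had 82.9 to 94.0 in sham and 146 to 165 in 4 OA libraries, but 89.6 in OA replicate 2. Havcr2 had 258, 258, 250.0, 277 and 205 in OA and 206, 145, 142, 206 and 181 in sham. In 5 of the 14 genes, Fap, Adamts16, Nox4, Pex5 and Cx3cr1, the groups did not overlap, against 1.18% of all genes. The ranking by p in these same libraries favours genes without overlap.

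The 14 highest ranked genes with less in OA included Hivep3, Mybpc1, Cmahp, Cd209f, Slc12a3, Ahrr, Kcnh4, Plekha6, Ovol1, Akr1c19, Tnip3 and Mrgprx2. Hivep3 and Ovol1 are zinc finger transcription factors, Ahrr represses the aryl hydrocarbon receptor, and Tnip3 binds the NF-kB inhibitor A20. Mybpc1 encodes a sarcomere protein. Several were low, such as Slc12a3 with 10.8 to 16.6 normalized reads in OA and 17.5 to 39.5 in sham. Log2 fold changes ranged from -1.40 to -0.52 and adjusted p-values in limma from 0.346 to 0.403. Sham replicate 3 was the highest sham library in 10 of the 14, and all 14 kept their direction and a p under 0.05 without it. They too were ranked by their difference in these libraries.

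Hivep3 had 102, 80.0, 69.4, 78.1 and 74.8 normalized reads in OA and 133, 112, 151, 125 and 115 in sham. All OA libraries were below all sham libraries, with a log2 fold change of -0.65 (SE 0.13), and -0.59 (SE 0.12) without sham replicate 3. Mybpc1 had 107, 102, 129.8, 113 and 102 in OA and 162, 212, 239, 164 and 131 in sham, where OA replicate 3 and sham replicate 5 almost touched. Ahrr had 46.5, 48.6, 44.0, 51.5 and 35.8 in OA and 67.2, 88.2, 118, 64.5 and 59.8 in sham. The groups did not overlap, and sham replicate 3 was the highest library. Kcnh4, a potassium channel, had 6.51 to 20.1 in OA and 25.8 to 30.1 in 4 sham libraries, but 60.3 in sham replicate 3. Tnip3 went the other way, with 102, 76.6, 58.6 and 70.0 in 4 sham libraries and 44.1 in sham replicate 3, against 41.6, 48.6, 17.2, 34.9 and 19.5 in OA. Its groups overlapped with all libraries and did not without sham replicate 3. In 12 of the 14 genes the groups did not overlap, Tnip3 and Mrgprx2 being the exceptions, against 0.693% of all genes. Ranking by p in these same libraries favours such genes. Cd209f, Akr1c19 and Mrgprx2 have near relatives in the genome, and the counting could have split reads among them.

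**Figure D3:**
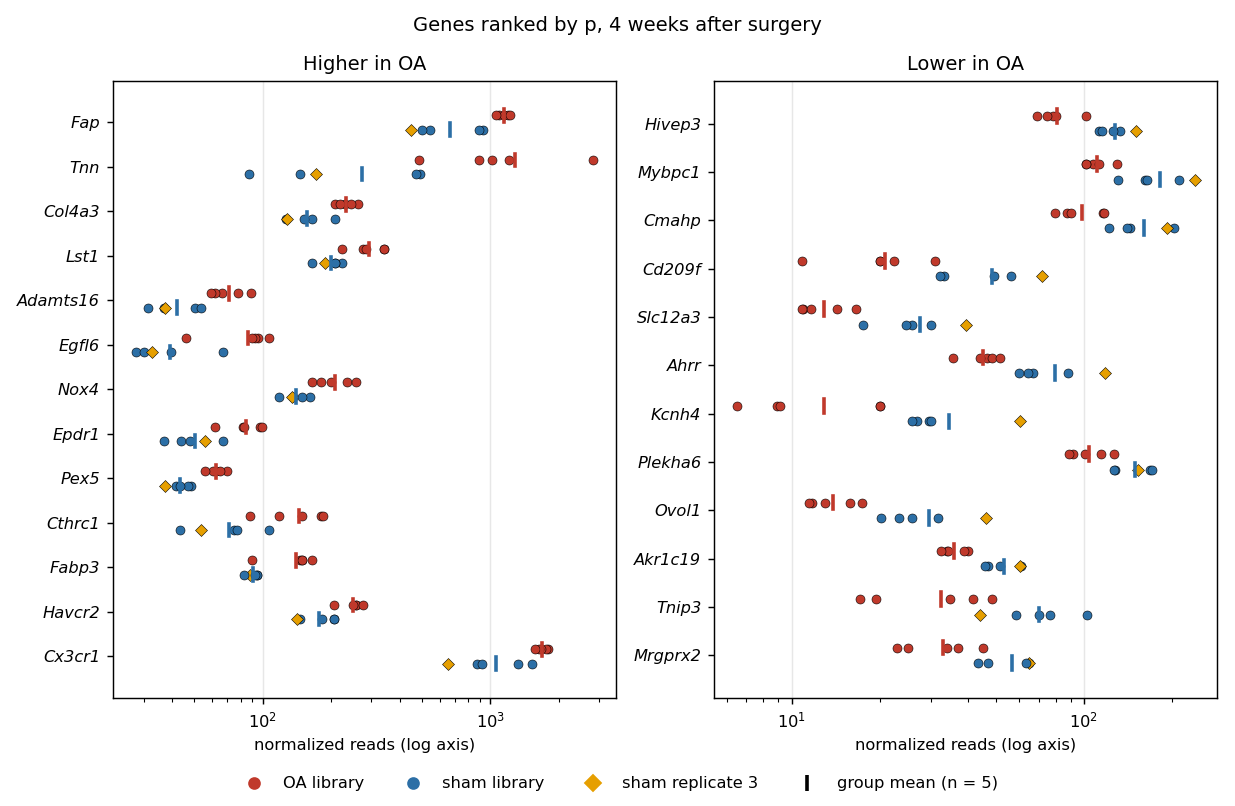
Normalized reads (log axis) of 25 of the ranked genes, 13 higher and 12 lower, in each of the 10 libraries, with OA in red, sham in blue, sham replicate 3 as an orange diamond and bars at the group means (n = 5). Fap has 1061 to 1221 in OA and 448 to 929 in sham, and sham replicate 3 lies at the right end of sham in most of the lower genes, such as Ahrr at 118.

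When sham replicate 3 was left out, the same ranking brought in 6 further genes in each direction. The higher genes included Kcnt2, Kcne3, Fbln7, Calml4 and Krt79, and the lower genes were Zmynd15, Rarb, Lpl, Gria2, Cdh22 and Slamf6. Kcnt2, a sodium-activated potassium channel, was the most abundant of the higher genes, with 2128, 1894, 2903, 1974 and 2028 normalized reads in OA and 1464, 1371, 606, 1265 and 1639.6 in sham. Its groups did not overlap, and sham replicate 3 was far below the other sham libraries. The log2 fold change was 0.84 (SE 0.23) with it and 0.60 (SE 0.12) without it. Calml4 was the opposite case, with 214 in sham replicate 3, 94.8 to 127 in the other sham libraries and 141 to 225 in OA. Lpl, the lipase that releases fatty acids from lipoproteins, had 2852, 2967, 2349, 2354 and 1986 in OA and 6242, 4005, 2746, 3855 and 3121 in sham. Only sham replicate 3 lay within the OA range. The log2 fold change of Lpl came to -0.63 (SE 0.19) with all libraries and to -0.75 (SE 0.18) without that one. Rarb, a retinoic acid receptor, had 45.1 to 54.9 in OA and 60.3 to 155 in sham, and Slamf6, a receptor of lymphoid and myeloid cells, had 22.7 to 61.0 in OA and 53.4 to 209 in sham. For both, sham replicate 1 was the highest library and sham replicate 3 the lowest of sham.

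Genes of the resident macrophage programmes were more often higher than lower. Of 11 lining macrophage genes, 4 were higher with an unadjusted p under 0.05 and 0 lower, and their median log2 fold change was 0.19, against 0.03 over all genes and 4.1% of all genes. The 4 were Vsig4, a complement receptor that restrains T cells, the lipid receptor Trem2, Cx3cr1 and Axl, a receptor for apoptotic cells. Vsig4 had 2739, 2689.7, 4602, 3619.7 and 3054 normalized reads in OA and 2104, 1568, 2175, 1599.8 and 2129 in sham, with no overlap. Trem2 had 3708, 3274, 4062, 3995 and 3454 in OA and 3299, 2378, 2374, 2595 and 2927 in sham, where OA replicate 2 fell below sham replicate 1. With all libraries 7 of the 11 genes had a positive log2 fold change and 4 a negative one, down to -0.87. The summed level of the list was 49048 to 54466 in OA and 46587 to 60007 in sham, so the groups overlapped. Without sham replicate 3 the list had 5 higher genes and 1 lower, with a median of 0.17. Of 13 resident scavenger receptor genes, 3 were higher and 1 lower, with a median of 0.13, and without sham replicate 3 it was 3 and 0, with 0.06. Msr1, which takes up modified lipoproteins, had 5404, 5748, 6906, 5874 and 5205 in OA and 3699, 4006, 2781, 3393 and 4909 in sham. Lyve1, a hyaluronan receptor, had 7699, 7842, 9848, 8226 and 7979.8 in OA and 4469, 6546, 5498, 6812 and 7909.8 in sham, and Colec12 had 4728 to 6506 in OA and 3273 to 4743 in sham. The lower member, Stab2, rested on sham replicate 3, where it had 69.6 normalized reads against 9.21 to 18.8 in the other sham libraries. Its log2 fold change was -1.16 (SE 0.53) with that library and -0.69 (SE 0.38), past no threshold, without it. The 11 core macrophage genes had 0 members on either side with a p under 0.05 and a median of 0.14, which became 0.08 without sham replicate 3. The 19 genes of recruited monocytes had 1 higher (Itgal, the CD11a chain) and 0 lower, with a median of 0.02, and without sham replicate 3 it was 1 and 1, with -0.07. The sign of this median changed in 13 of the alternative settings.

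Genes of lysosomes lay on the same side. Of 48 lysosome genes, 8 were higher and 0 lower, 44 had a positive log2 fold change, and the median was 0.12. Over all genes tested the share was 4.1% higher and 3.82% lower with a median of 0.03. Without sham replicate 3 it was 6.01% higher and 4.38% lower with a median of 0.0035. All list counts and medians are to be read against those of their own fit. A single member of a list of 18 or more is near these shares. Npc2, which carries cholesterol out of the lysosome, had 6902, 6812, 8095, 7368 and 6326 normalized reads in OA and 6346, 5012, 5306, 5174 and 5805 in sham. Ctsl, a cysteine protease, had 8055, 8757, 9158, 8913 and 8923 in OA and 7191 to 7719.6 in sham. Lamp1 and Atp6v0d1 were also without overlap, and Ctsf overlapped. Without sham replicate 3 the list had 12 higher and 2 lower genes and a median of 0.07. Of 16 genes of MHC class II and co-stimulation 2 were higher and 0 lower, the proteases Lgmn and Ctss, with and without sham replicate 3. Of 21 complement genes 5 were higher and 2 lower, and 7 and 1 without that library. C1s and C2, which act early in the classical pathway, had log2 fold changes of 0.48 (SE 0.16) and 0.26 (SE 0.11). Of 10 Fc receptor genes 1 was higher, Fcrl2, and without sham replicate 3 also 1 lower, Fcmr, and of 18 C-type lectin receptors 1, Ly75, which had no p under 0.05 without sham replicate 3. Of 25 pattern recognition genes 4 were higher and 0 lower, namely Tlr2, Ticam2, Pycard and Tlr4, but 4 and 2 without sham replicate 3. Tlr2 had a log2 fold change of 0.45 (SE 0.14) and Tlr4 of 0.29 (SE 0.12). Of 23 integrin genes 4 were higher, Itgb5, Itga9 and Itgal among them, and 1 was lower, the laminin receptor chain Itga7, but without sham replicate 3 it was 3 and 2 and the median of 0.05 turned to -0.0043.

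Genes of amino acid and energy metabolism lay on both sides. Slc1a3, the glutamate transporter EAAT1, had the smallest p of the 14861 genes, with 203, 179, 248, 244 and 167 normalized reads in OA and 99.5, 82.4, 121, 77.4 and 88.4 in sham. On the log2 scale OA was higher by 1.14 (SE 0.15), with a Benjamini-Hochberg adjusted p of 0.0702 in limma. Without sham replicate 3 the log2 fold change was 1.24 (SE 0.13) and the adjusted p in limma 0.0167. Slc1a5, which carries glutamine, had 564, 628, 528, 577 and 541 in OA and 872, 719, 687, 717 and 702 in sham, with no overlap. Slc1a1, a neuronal glutamate carrier, had a log2 fold change of -0.89 (SE 0.32), and its groups overlapped. Slc7a11, the cystine and glutamate exchanger, had 79.2 to 172 in OA and 97.5 to 602 in sham, with a p under 0.05 only without sham replicate 3. The 602 was that of sham replicate 1, with 97.5 to 282 in the other sham libraries. Of 17 genes of the list, 1 was higher and 2 lower, and 1 and 3 without that library. In the list of itaconate, arginine and gluconeogenesis 3 of 13 were lower and 1 higher, and 4 and 1 without it. The study names or labels all 3 lower genes at 4 weeks, so they were already chosen for their difference in these libraries. Acod1, which makes the anti-inflammatory metabolite itaconate, had 15.9, 22.9, 6.87, 5.82 and 5.42 in OA and 139, 109, 11.6, 59.8 and 35.0 in sham. Sham replicate 3 alone lay within the OA range, and without it the log2 fold change went from -2.31 (SE 0.61) to -2.83 (SE 0.48). Ass1, which feeds citrulline back to arginine, had 196 to 253 in OA and 278 to 401 in sham. Of 21 glucose genes 2 were higher, the fructose carrier Slc2a5 with no overlap and Hk2, and Slc2a1 was lower without sham replicate 3 only.

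Osteoclast and lipid-associated genes that passed an unadjusted p of 0.05 were mostly lower. Of 16 osteoclast genes 4 were lower and 0 higher with a p under 0.05, and the median was -0.06, or -0.14 without sham replicate 3, but just above 0 without sham replicate 1 or 4. Ocstamp, which drives cell fusion, had 9.01, 11.4, 5.49, 4.98 and 4.34 normalized reads in OA and 40.5, 24.2, 16.2, 18.8 and 16.6 in sham, near the lower limit of what these libraries detect. Car2, the carbonic anhydrase that supplies acid, had 63.1, 62.9, 38.5, 31.6 and 38.0 in OA and 77.4, 77.6, 62.7, 144 and 74.6 in sham. Oscar and Atp6v0d2 were the other members, both with overlapping groups. Ocstamp and Oscar averaged 7.05 and 9.68 in OA and 23.3 and 29.2 in sham. They passed the mean of 10 only through sham, so the filter itself favours lower genes of this kind. The same holds for Stab2 and Cdh22, which averaged 8.33 and 8.81 in OA and 24.7 and 17.5 in sham. It also holds for Tbx21, described below, and for a lower gene of the itaconate, arginine and gluconeogenesis list. Of 20 lipid-associated macrophage genes 3 were lower and 1, Trem2, was higher, and 4 and 2 without sham replicate 3. Their median of -0.04 turned positive under TMM scaling over every gene with a read and without sham replicate 1, to at most 0.09. Besides Lpl these included Spp1, osteopontin, with 3883, 5961, 1885, 2035 and 1695 in OA and 24589.5, 5529, 3409.5, 6324 and 3533 in sham. Sham replicate 1 held several times more Spp1 than any other library, and the groups overlapped. Fabp4 had 5352 to 8263 in OA and 6649 to 12280 in sham, and had no p under 0.05 without sham replicate 3, its highest library.

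Among interferon-response genes those past an unadjusted p of 0.05 were lower. Of 39 such genes 5 were lower and 0 higher, 33 had a negative log2 fold change, and the median was -0.14. It was 6 lower and 0 higher without sham replicate 3, with a median of -0.13. Cxcl10, a chemokine for T cells, had 262, 278, 214, 245 and 234 normalized reads in OA and 464, 340.3, 337, 334 and 246 in sham. Cxcl11 had 14.6 to 22.4 in OA and 23.2 to 37.8 in sham, with no overlap, and Cxcl9 and Usp18, which blunts interferon receptor signals, had log2 fold changes of -0.51 (SE 0.19) and -0.40 (SE 0.14). The T and NK cell markers had 1 lower member of 15, Tbx21, with 41.8 normalized reads in sham replicate 3 against 10.7 to 12.0 in the other sham libraries, and 0 members had a p under 0.05 without it. Tbx21 had a median of 7.48 in OA and passed the mean of 10 only through sham. Of 40 chemokine and receptor genes 7 were lower and 3 higher, with a median of -0.00068, and without sham replicate 3 it was 7 and 5, with -0.17. Cxcl14 had 73.5 to 281 in OA and 35.9 to 116 in sham, whereas Cx3cl1, the ligand of Cx3cr1, had 379 to 476 in OA and 469 to 607 in sham. Of 27 cytokine genes 2 were higher and 1 lower, and 3 and 3 without that library. Il18 had 862, 956, 1039, 1088 and 799 in OA and 847, 596, 532, 592 and 811 in sham, and Tnfsf10 (TRAIL) had a log2 fold change of -0.27 (SE 0.11). Il1rn, the antagonist of the IL-1 receptor, had 296 to 935 in OA and 441 to 2234 in sham and passed a p of 0.05 only without sham replicate 3. Its highest value was that of sham replicate 1, with 441 to 1020 in the other sham libraries. Of 25 eicosanoid genes 4 were higher and 1 lower, and 4 and 2 without it. The higher ones included Lta4h, which makes leukotriene B4, at 1517 to 1848 in OA and 1176 to 1424 in sham, and the thromboxane synthase Tbxas1, at 1961 to 2525 in OA and 1541 to 1997 in sham. The lower one with all libraries, Pla2g7, which breaks down platelet-activating factor, had 376, 417, 130.5, 230.1 and 112 in OA and 1595, 447, 362, 847 and 407 in sham.

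TGF beta genes past an unadjusted p of 0.05 were higher, and Wnt genes lay on both sides. Of 42 TGF beta and BMP genes 6 were higher and 0 lower, with a median of 0.12, and 4 and 0 without sham replicate 3, with a median of 0.06. Pmepa1, a feedback inhibitor of the pathway, had 498, 473, 475, 474 and 471 normalized reads in OA and 327, 245, 193, 348 and 467 in sham. The OA libraries were nearly identical, and sham replicate 5 reached just under them. The receptor Tgfbr1 had 3206 to 4007 in OA and 1109 to 3683 in sham, where the lowest value was that of sham replicate 3. Its log2 fold change went from 0.57 (SE 0.25) to 0.30 (SE 0.12) without that library. The inhibitory Smad7 had a log2 fold change of 0.31 (SE 0.10) and the secreted protease Htra3 of 0.72 (SE 0.13). Of 38 Wnt and R-spondin genes 4 were higher and 4 lower, and 5 and 2 without sham replicate 3. Rspo2 and Rspo1, which amplify Wnt signals, had log2 fold changes of 1.03 (SE 0.22) and 0.57 (SE 0.15). The Dickkopf receptor Kremen1 had 602, 599, 528, 539 and 542 in OA and 402, 454, 334, 437 and 463 in sham, with no overlap. The secreted Wnt antagonist Sfrp5 had 28.2 to 40.2 in OA and 38.8 to 84.7 in sham. Of 23 JAK and SOCS genes 2 were lower, the receptors Lifr and Osmr for IL-6 type cytokines, with log2 fold changes of -0.36 (SE 0.12) and -0.25 (SE 0.09), and without sham replicate 3 there were 3. Of 20 IL-4 response genes 1 was higher, the receptor chain Il4r at 3378 to 3711 in OA and 2917 to 3284 in sham, and 2 were lower, Pparg and Ccl24. It was 1 and 3 without sham replicate 3, and Ccl24 was not among them. Of 20 CSF receptor and lineage factor genes 3 were higher and 0 lower, the transcription factors Maf, Cebpa and Cebpb. Leaving out sham replicate 3 gave 2 and 2, with no p under 0.05 for Cebpb. Of 27 immediate early genes 1 was higher, Klf2, and 0 lower, but 1 and 3 without that library. Of 34 cell cycle genes 1, the replication licensing factor Cdt1, was lower, and 0 without it. Of 35 neurotrophin and axon guidance genes 3 were higher, among them the adhesion molecule Nrcam with no overlap and Sema3d, and 1 was lower, Ntf3, and 3 and 2 without that library. Of 19 iron and heme genes 2 were higher, Ncoa4, which delivers ferritin for breakdown, and Slc48a1, and 1 was lower, Hpx, which had no p under 0.05 without sham replicate 3.

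Matrix genes that passed an unadjusted p of 0.05 were mostly higher, as were some fibroblast markers. Of 38 collagen genes 8 were higher and 3 lower, with a median of 0.13, and without sham replicate 3 it was 5 and 2. Besides Col4a3 and Col4a4 these included Col12a1, with 2497, 2602, 1369, 2117 and 2096 normalized reads in OA and 1344, 1373, 1051, 1578 and 1567 in sham, and Col16a1, with a log2 fold change of 0.45 (SE 0.14). Of 36 proteases and inhibitors of the matrix 8 were higher and 2 lower, and 5 and 2 without sham replicate 3. Timp2, an inhibitor of metalloproteinases, had 6975, 7108, 7870.2, 7662 and 7047 in OA and 5402, 5310.3, 6629, 6290.1 and 6581 in sham, with no overlap, whereas Timp3 had 2790 to 3463 in OA and 3201 to 4064 in sham. Of 21 fibroblast markers 4 were higher and 0 lower, Fap, Postn, Lum and Cdh11. Postn, periostin, had 2339, 2741, 2044, 3067 and 2013 in OA and 1359, 1378, 996, 2134 and 1679 in sham, and Lum had 1181 to 2714 in OA and 702 to 1526 in sham. The summed level of the 21 markers, all above 0, was 36149 to 43680 in OA and 33956 to 43287 in sham, so the groups overlapped. The part of fibroblasts in the matrix genes was not tested.

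Markers of other cells were read in the same way. The 17 neutrophil markers had a mean log2 level of 8.70 and 8.73 in OA replicates 1 and 3, 7.62 and 7.42 in sham replicates 1 and 4, and 5.65 to 6.54 in the other 6 libraries. Of these 17 genes 1, Trem1, had a p under 0.05 and was higher, and the median of 0.20 became 0.02 without sham replicate 3. This median turned negative without OA replicate 1 and without OA replicate 3. The 18 eosinophil and mast cell markers had 3 lower members and 0 higher, and 2 and 0 without that library. Rnase2, an eosinophil ribonuclease of a family of similar genes, had 31.2, 29.5, 19.2, 12.5 and 3.25 in OA and 37.8, 72.7, 193, 35.2 and 99.4 in sham, and the mast cell tryptase Tpsab1 had a log2 fold change of -0.63 (SE 0.21). The adipocyte list had 4 lower members of 11, Pparg, Lipe, Cidea and Fabp4, and 1 without sham replicate 3. The mural cell list had 3 of 14, Notch3, Pdgfrb and Abcc9, with and without it. Of 15 cartilage and osteoblast markers 1 was higher, Comp, and 2 lower, Chad and Spp1, while without sham replicate 3 Dmp1 was the higher one. Of 21 endothelial markers 1 was higher, Mmrn1, but 17 had a negative log2 fold change. Their median was -0.07, and -0.05 without sham replicate 3. The Schwann cell list had 2 higher members of 13, Cnp and Pmp22, and without sham replicate 3 also 1 lower, Egr2. The lists of B and plasma cells (7 genes), dendritic cells (15) and skeletal muscle (18) had 0 members past the threshold on either side, as had the 13 mitochondrially encoded genes. Without sham replicate 3 there was 1 lower gene of the B and plasma cell list, Cd22, with a log2 fold change of -0.31 (SE 0.06) and no overlap. Its median in OA was 332, against 9.76 for Cd79b and 264 for Ighm of the same list, and its cell source was not tested. In muscle there was 1 lower gene without sham replicate 3, Tnnt3, and the median turned from -0.14 to 0.06.

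**Figure D4:**
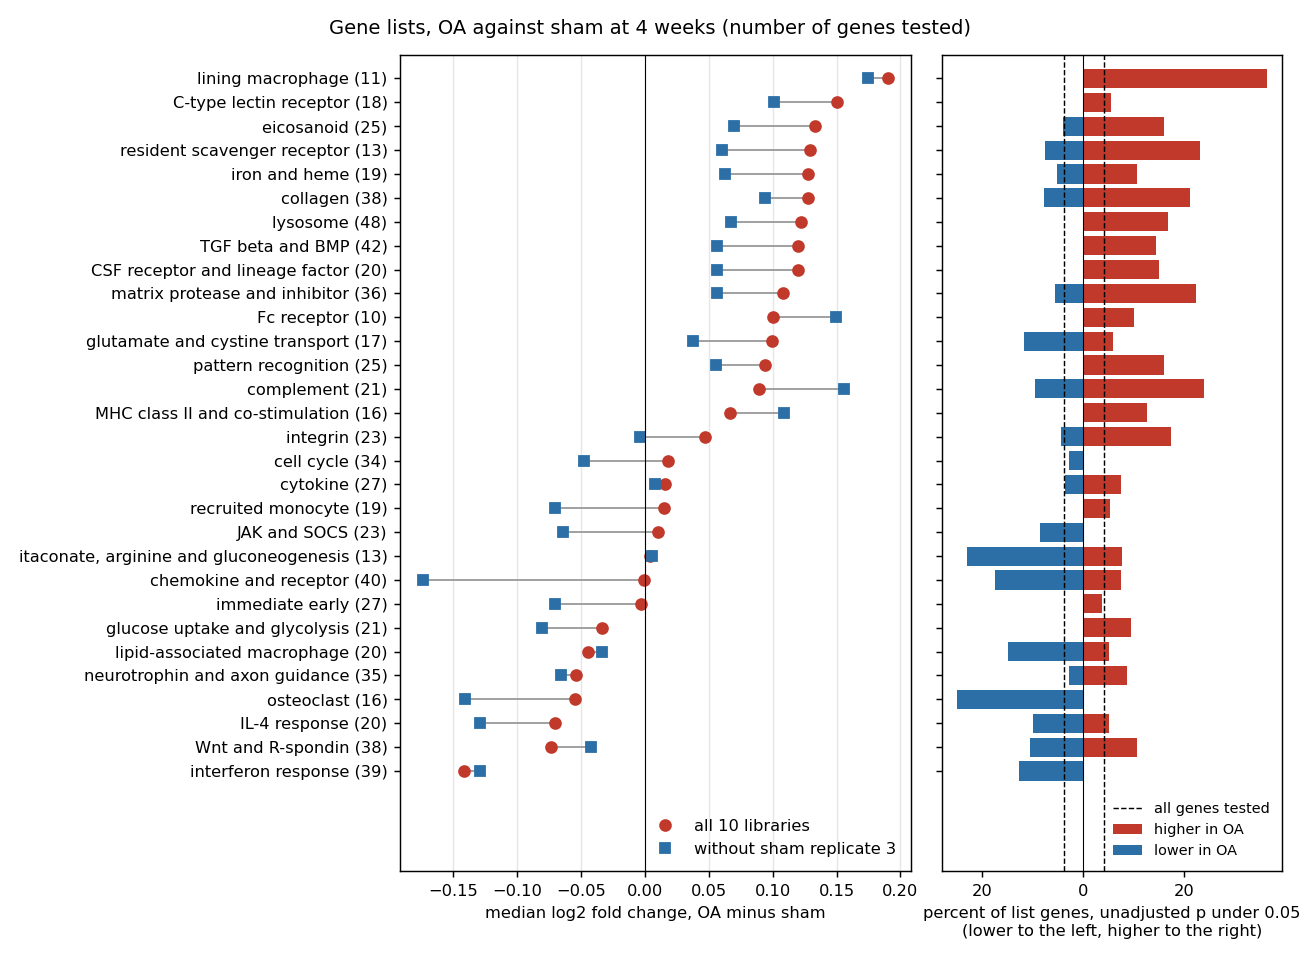
Left, median log2 fold change of 30 gene lists with all 10 libraries (red circles) and without sham replicate 3 (blue squares); right, percent of each list's genes with an unadjusted p under 0.05, higher in OA to the right and lower to the left, with dashed lines at 4.1% and 3.82% of all genes tested. Of these 30 lists, which leave out the cell markers, lining macrophage has the highest median with all libraries, 0.19, and interferon response the lowest, -0.14, while without sham replicate 3 the chemokine list is the lowest, at -0.17.

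The 25 genes that the study names or labels at 4 weeks were among the tested genes. All 25 had an unadjusted p under 0.05 with and without sham replicate 3, and 22 had no overlap between the groups. They had been chosen for their difference in these libraries, so these counts are not independent evidence. Slc1a3, Vsig4, Msr1, Htra3, Rspo2 and Nrcam are among them and also count in the lists above, so those counts share this selection.

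The libraries taken 12 weeks after surgery, 4 OA and 4 sham pools of other rats, gave a test that did not share samples with the ranking. The table of that time point was normalized separately, so each difference was computed within its own table. At 12 weeks, 5.75% of 14666 tested genes were higher with an unadjusted p under 0.05 and 6.62% were lower. Of the 14 ranked higher genes, all 14 were also higher in OA at 12 weeks, where 47.3% of all genes tested at both times were higher, and 10 of them had a p under 0.05. Adamts16 is among the 10, but the study names it at 12 weeks, so its value there is not independent. Tnn stood at 1474 ± 463 normalized reads in OA and 385 ± 338 in sham there (SD, n = 4 each), with a log2 fold change of 2.42 (SE 0.62). Fap stood at 1503 ± 116 in OA and 849.8 ± 269 in sham. The 4 that missed the threshold at 12 weeks were Lst1, Nox4, Pex5 and Havcr2. Of the 14 lower genes, 13 had a negative log2 fold change at 12 weeks, as had 52.7% of all genes, or 12 in the fit over both time points. Hivep3, one of the 13, was at -0.00029 (SE 0.25), so its sign there cannot be read. In 5 the p was under 0.05, among them Mybpc1, Cmahp, Ahrr and Akr1c19. On the log2 scale Kcnh4 and Tnip3 differed by -0.05 (SE 0.32) and -0.02 (SE 0.39) there. Rarb, Zmynd15 and Slamf6, lower at 4 weeks, had log2 fold changes of 0.28 (SE 0.21), 0.22 (SE 0.17) and 0.52 (SE 0.34) at 12 weeks.

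Of the 608 genes with an unadjusted p under 0.05 and higher at 4 weeks that were tested at both times, 229 (37.7%) were higher with such a p at 12 weeks, against 5.71% of all genes tested at both. Of the 474 lower genes it was 103 (21.7%), against 6.69%. For the lower genes with a p under 0.05 only with sham replicate 3 it was 24 of 174 (13.8%), and for those with it in both fits 79 of 300 (26.3%). The difference between these shares was not tested. Vsig4, Trem2, Cx3cr1, Msr1 and Lyve1 were higher at both times, at 12 weeks by log2 fold changes of 0.65 (SE 0.28), 0.56 (SE 0.15), 0.80 (SE 0.20), 0.50 (SE 0.14) and 0.52 (SE 0.14). At 12 weeks Slc1a3 stood at 172 ± 49.6 normalized reads in OA and 153 ± 81.4 in sham (SD, n = 4 each), with a log2 fold change of 0.31 (SE 0.38), and Acod1 and Ocstamp were under the mean of 10. The difference between the time points was tested for every gene. It called 0 genes (0%), with 515 under an unadjusted p of 0.05 (3.47%) and a smallest adjusted p of 0.937 in limma. The smallest adjusted p was 0.187 in limma with a replicate block and 0.0508 in DESeq2, which also called 0 genes each. Of the ranked genes 1 of 14 higher and 6 of 14 lower had an unadjusted p under 0.05 for this difference, but the ranking used the same 4-week libraries.

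**Figure D5:**
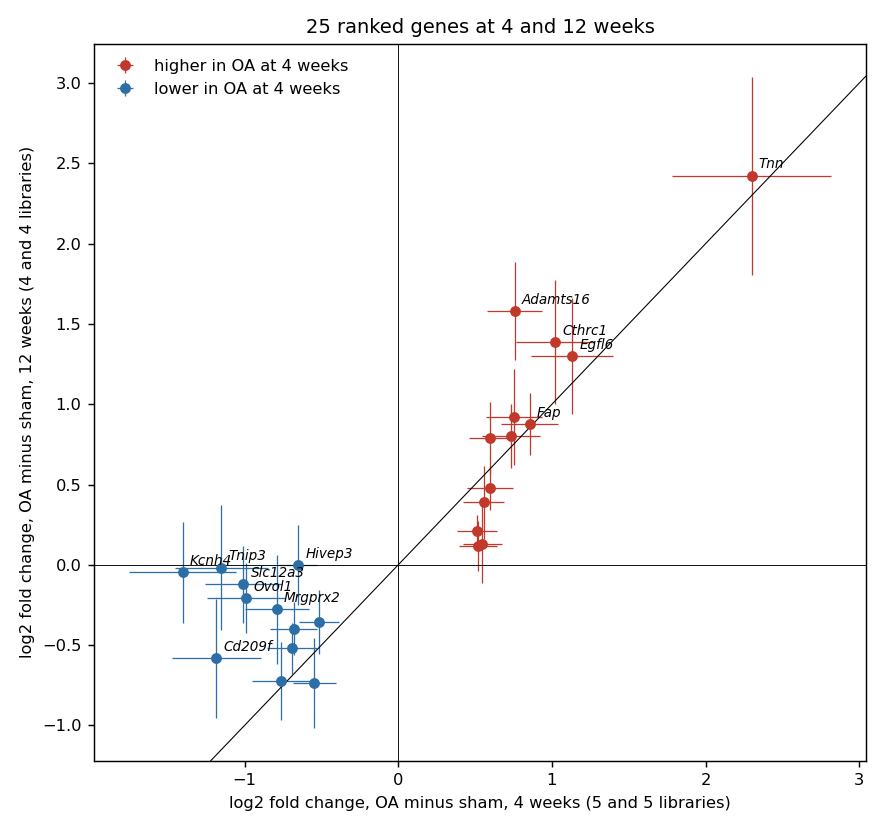
Log2 fold change, OA minus sham, of the same 25 ranked genes at 4 weeks (x axis) and 12 weeks (y axis), each within its own table, with bars of 1 SE and the line of equal values. The 13 higher genes drawn all lie above 0 at 12 weeks, while Hivep3, Kcnh4 and Tnip3, lower at 4 weeks, lie near 0.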

How the data were processed

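CD11b/c+ synovial cells were sequenced after ribosomal RNA depletion with a stranded kit. The authors used fastp 0.20.0, STAR 2.7.6a, featureCounts 2.0.0 and DESeq2 1.24.0 per the submitters' processing notes, and their methods add the rat genome Rnor6 and removal of duplicates with Sambamba. Whether featureCounts used strand is not given in the sources used here. The authors deposited, for each time point, a normalized read signal per gene and library. Their own comparison columns (fold changes, p-values) were not used. Values were whole multiples of 1 read (tolerance 0.001), from which reads were recovered. The replicates of a group differed beyond sampling noise.

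OA was compared with sham on log2(normalized reads + 1) in limma 3.58.1 (R 4.3.3) with a mean-variance trend and Benjamini-Hochberg adjustment over all genes tested. This scale compresses changes of low genes. For recovered reads, edgeR 4.0.16 and DESeq2 1.42.0 gave alternatives. The test between time points used log2 CPM with a prior count of 2. Scripts were tested on simulated data.

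Genes named were the 14 with the smallest p in each direction at 0.5 or more on the log2 scale, without study genes, clone names and unnamed genes, up to 6 more each way without sham replicate 3, and up to 4 of each list by p plus those without overlap. The 12-week test within its own table was added after the data were seen. Members, lists and rules were chosen with earlier results of these data known. P-values measure the spread between pools. Some genes are not reported here.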

Additional observations from a re-analysis of the deposited data

Results flagged for a closer look

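Each of 340 sets of 5 libraries of 1 group, for the named genes and library measures, was searched for a library far from the other 4 by Dixon's 95% limit. Chance would mark about 1 in 20 such sets of normally distributed values, and 30 (8.8%) were marked, 11 of them in sham replicate 3. Normalized reads were used without a log, on named genes chosen in these libraries, so no excess over chance can be read.

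In sham replicate 3 the high values were 60.3 normalized reads for Kcnh4, 214 for Calml4, 69.6 for Stab2, 25.5 for Hpx, 41.8 for Tbx21 and 41.8 for Dmp1, and the low values were 492 for Tfrc, the transferrin receptor, and 292 for Cd22. The same library put 1.02% of its reads in genes with a mean under 10, 0.0645% in olfactory and vomeronasal receptor genes and 3.04% in ribosomal protein genes, and their part in the gene values was not tested. In sham replicate 1 the high values were 24589.5 for Spp1, 242 for Sctr, 872 for Slc1a5, 890.5 for Slc2a1, 1800.3 for Tnfsf13 and 37.8 for Cxcl11, and Chad was low at 122. In sham replicate 4 Car2 reached 144 and Cxcl14 116. OA replicate 3 was high for Kcnt2 at 2903, Gria2 at 198, Col4a4 at 725, Lyve1 at 9848, Pycard at 1030.1 and Ccl24 at 2325, and low for Egfl6 at 46.0. Fabp3 was low in OA replicate 2 at 89.6, Ntf3 high in OA replicate 5 at 30.4 and Pmepa1 high in OA replicate 1 at 498.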

How the results depend on the processing

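With all libraries limma called 0 genes, and 1 under TMM scaling over every gene with a read (chosen after seeing the data), 1 with a replicate block (C1qtnf3) and 1 with sample quality weights, Slc1a3 in all but the block. DESeq2 called 27, or 42 with no fold-change minimum, and without sham replicate 3 it called 40 and edgeR 1 (Slc1a3). Leaving out each replicate in turn gave 0 to 1 called genes, the 1 without sham replicate 3, and 805 to 1544 genes with an unadjusted p under 0.05, against 1177. The groups did not overlap in 278 genes, and in 547 without sham replicate 3. With every gene with a read tested, 2579 genes had an unadjusted p under 0.05, 25.7% of them higher in OA, and 433 had no overlap. The share higher was 51.7% in the reported fit, 65% under TMM scaling over every gene with a read, 38% in edgeR and 69.5% among genes with a mean of at least 50. Tfrc (0.03) reversed to -0.29 with sample quality weights, -0.11 in edgeR, -0.090 in DESeq2 and -0.019 in edgeR with a replicate block, and without sham replicate 3 to -0.33 in limma and in voom, -0.32 in edgeR and -0.31 in DESeq2, and leaving out each replicate gave -0.33 to 0.14. The cause was not tested. Of 172 named genes Tfrc was the only one to change direction in a setting run. Named genes were chosen by their p or separation in these same libraries, so a stable direction was largely fixed in advance. Of all 14861 genes tested, 11555 had the same direction with and without sham replicate 3. Of 45 lists, 17 had a median of the other sign in at least 1 setting. Replicate numbers did not pair the pools (correlations of deviations from -0.131 to 0.0803), and the block changed no other call. The depth of sham replicate 3 limits what low genes can show, and genes of similar sequence and antisense pairs may share reads.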
